A study of Mus musculus with 24 samples.

Results

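The open chromatin of Cux2 callosal projection neurons (Cux2 CPNs) was compared between postnatal day (P) 21 and P48 through 2 peak lists. The P21 list held 37426 peaks and the P48 list 45642 peaks on chromosomes 1 to 19 and X, together 83068 of the 292994 peaks in the 12 lists of the series. A P21 peak was called lost when no P48 peak overlapped it by 1 bp, a P48 peak was called gained when no P21 peak overlapped it, and all others were called kept. There were 6516 lost and 14854 gained peaks, and the kept peaks numbered 30910 in the P21 list and 30788 in the P48 list.

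Both groups came from the same mouse line at different ages. Cux2-CreERT2 knock-in mice carried the Ai14 reporter, in which Cre activity turns on the red fluorescent protein tdTomato, and 4-hydroxytamoxifen given to the pregnant mother switched Cre on before birth. Labelled cells of the somatosensory and motor cortex were sorted at P21 or P48, with 2 replicates per age, each a pool of male and female animals from more than 1 litter. The line also marks some interneurons, so the sorted cells need not all be projection neurons. The study sequenced single cells of both neuron classes labelled in the same way. It found few with interneuron markers and judged their effect on its results minimal. The deposited lists joined the replicates of an age, so each age had 1 list and no value for a single replicate. No test between ages was therefore possible, and the intervals given below are 95% Wilson intervals for a share of peaks, which cover counting error only. Because peaks were either listed or not listed, "lost" and "gained" are statements about lists and not measured falls or rises in accessibility.

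ATAC-seq finds open chromatin by the places where a transposase can insert adapters into DNA. Active promoters, enhancers and sites bound by the insulator protein CTCF give peaks, and in neurons the distal peaks differ more between classes than the promoters do. Callosal projection neurons of the upper layers connect the cortical hemispheres. Weaning and a period of high cortical plasticity fall around the earlier age, and the later age is that of a young adult.

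The strongest lost and gained peaks away from promoters show how the sets differed in base composition. Below are 200 bases centred on the peak summit for 3 of the 4 strongest lost peaks, all intergenic (the second strongest, near Gramd3, is named later without sequence), and then for the 3 strongest gained peaks in intergenic or intronic sequence, each named by its nearest protein-coding gene (genome build NCBIM37/mm9, plus strand). Capitals mark every match to the 15 motifs searched on both strands. The lost windows lie at chr8:58608283-58608482 near Glra3 (a glycine receptor subunit), chr3:48459131-48459330 near 1700018B24Rik and chr14:13803599-13803798 near Cadps (a priming factor of dense-core vesicles), and their GC contents were 33.5%, 39.5% and 36.0%. The gained windows lie at chrX:149408994-149409193 near Usp51 (a deubiquitinase), chr9:52469655-52469854 near AI593442 and chr11:90145012-90145211 near Mmd, with GC contents of 55.0%, 53.0% and 48.5%.
Glra3 (lost): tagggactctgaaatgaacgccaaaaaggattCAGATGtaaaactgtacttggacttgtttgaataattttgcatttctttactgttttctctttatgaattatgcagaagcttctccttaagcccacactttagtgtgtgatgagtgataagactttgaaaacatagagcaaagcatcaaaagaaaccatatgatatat
1700018B24Rik (lost): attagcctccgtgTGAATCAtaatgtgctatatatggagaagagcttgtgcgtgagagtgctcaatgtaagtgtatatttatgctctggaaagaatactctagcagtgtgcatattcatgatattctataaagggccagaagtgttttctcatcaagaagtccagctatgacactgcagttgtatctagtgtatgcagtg
Cadps (lost): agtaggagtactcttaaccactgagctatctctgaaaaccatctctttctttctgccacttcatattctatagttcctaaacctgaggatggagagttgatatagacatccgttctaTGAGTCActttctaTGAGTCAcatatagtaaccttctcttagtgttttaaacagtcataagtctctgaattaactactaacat
Usp51 (gained): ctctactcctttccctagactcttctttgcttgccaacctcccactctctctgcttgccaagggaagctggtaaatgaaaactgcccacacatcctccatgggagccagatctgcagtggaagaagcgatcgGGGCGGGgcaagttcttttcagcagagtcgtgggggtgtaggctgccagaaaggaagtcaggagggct
AI593442 (gained): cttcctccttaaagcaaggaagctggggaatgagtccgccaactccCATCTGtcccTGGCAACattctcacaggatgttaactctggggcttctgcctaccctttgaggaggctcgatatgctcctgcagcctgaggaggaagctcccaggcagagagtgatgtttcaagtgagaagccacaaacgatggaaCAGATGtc
Mmd (gained): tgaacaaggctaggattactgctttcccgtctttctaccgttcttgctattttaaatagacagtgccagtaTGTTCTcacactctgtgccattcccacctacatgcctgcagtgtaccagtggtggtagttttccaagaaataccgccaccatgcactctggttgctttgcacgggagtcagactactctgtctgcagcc

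The Cadps window held 2 AP-1 matches (TGANTCA, the site of FOS and JUN dimers) and the 1700018B24Rik window held 1, while the Glra3 window held 1 NEUROD E-box (CAGATG). The Usp51 window held 1 SP/KLF match (GGGCGGG), the AI593442 window held 2 NEUROD E-boxes and an RFX match (GTTGCCA), and the Mmd window held 1 match to the glucocorticoid receptor hexamer (AGAACA). A match of letters is a description and not evidence of binding.

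A second group of strong gained peaks lay over promoters. For Wrb (a receptor for tail-anchored membrane proteins, plus strand) and Actr2 (a subunit of the actin-branching ARP2/3 complex, minus strand), the 150 bases upstream of the start site nearest the summit lie inside the gained peak, at chr16:96366864-96367013 and chr11:20012917-20013066. They are shown in the direction of transcription as examples of gained promoters.
Wrb (gained promoter): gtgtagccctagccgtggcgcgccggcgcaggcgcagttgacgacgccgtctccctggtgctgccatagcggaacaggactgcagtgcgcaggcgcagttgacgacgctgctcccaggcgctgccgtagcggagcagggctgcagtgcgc
Actr2 (gained promoter): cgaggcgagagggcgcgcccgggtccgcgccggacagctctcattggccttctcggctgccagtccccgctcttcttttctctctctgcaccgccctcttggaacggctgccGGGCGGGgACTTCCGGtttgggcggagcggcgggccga

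These stretches had 70.7% and 71.3% GC and 18 and 19 CpG dinucleotides. The Actr2 stretch held an SP/KLF match next to an ETS match (CCGGAAGT), which stands on the opposite strand, and the Wrb stretch held no match. Both peaks were listed in Cux2 CPNs at E18.5, P1, P3 and P7, were absent from the list at P21 and were listed again at P48.

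Most P21 peaks were still listed at P48. Lost peaks made up 17.4% of the P21 list (interval 17.0% to 17.8%), and gained peaks made up 32.5% of the P48 list (32.1% to 33.0%), which is 2.28 gained peaks for each lost one. Few of them were shifted borders of a peak in the other list. A peak of the other list lay within 500 bp of 2.12% of lost and 2.50% of gained peaks, and the median distance to the nearest one was 17706 bp and 15050 bp.

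The length of the lists set part of these counts. The P48 list was 1.22 times as long, with 8216 more peaks. Its lowest listed −log10 p (the peak caller's measure of enrichment over background) was 14.3, against 13.7 at P21, so the longer list had the higher limit. When each list was held to its 37426 strongest peaks, 24.7% of P21 peaks were lost and 25.1% of P48 peaks gained. Lists of equal length must give nearly equal numbers of lost and gained peaks, so the excess of gained peaks carries the difference in length, whereas the difference in kind described next was present at equal length. The methods of the study name a single target depth for all ATAC-seq libraries, the lists hold no read counts, and the part of the depth reached in each library in the length of its list was not tested.

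Lost and gained peaks differed in how often they lay at promoters, here within 1 kb of an annotated transcription start site. Only 321 of the lost peaks were at promoters, 4.93% (4.43% to 5.48%). Of the gained peaks 3523 were, 23.7% (23.0% to 24.4%), and the share was 21.4% in the kept peaks of P21. Among kept peaks of P48 it was 21.5%. Lost peaks lay in intergenic sequence in 51.6% of cases and in introns in 40.2%, against 34.3% and 35.4% of gained peaks. Gained peaks also lay more often in exons, 6.60% against 3.22%. Counted the other way, 4.63% of the promoter peaks of P21 were lost, against 20.3% of the distal ones (all peaks that are not at promoters). At P48, 34.7% of promoter peaks and 31.9% of distal peaks were gained.

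**Figure D1:**
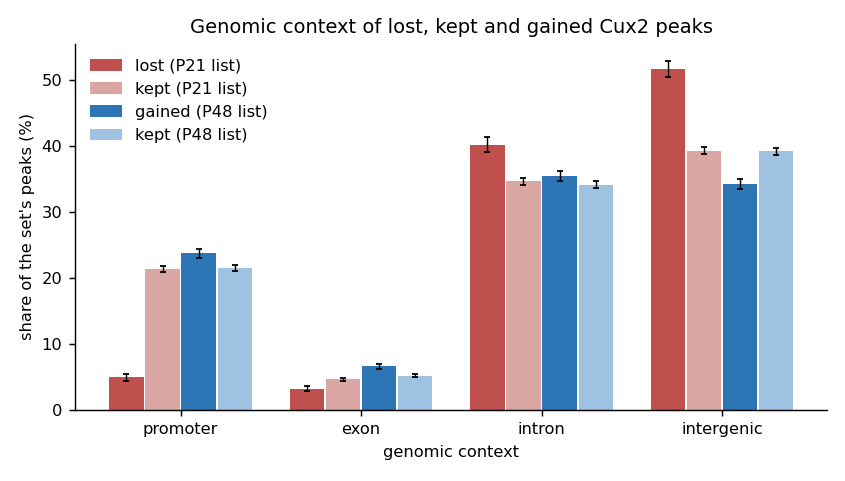
Share of lost, kept and gained peaks (%, vertical axis) in 4 genomic contexts (horizontal axis), with 95% Wilson intervals as error bars. The promoter share was 4.93% in lost peaks and between 21.4% and 23.7% in the other 3 sets, and the intergenic share was highest in lost peaks, at 51.6%.

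With lists of equal length by −log10 p the promoter shares were 6.17% of lost and 25.2% of gained peaks, by fold enrichment they were 10.8% and 22.4%, and with at least 50% reciprocal overlap of the whole lists 11.2% and 24.7%. The 4 earlier steps between neighbouring ages of Cux2 CPNs (E18.5 to P1, P1 to P3, P3 to P7 and P7 to P21) gave promoter shares of gained peaks from 5.99% to 14.5%, and promoter shares of lost peaks from 14.4% to 24.2%. At equal length by −log10 p these ranges were 5.36% to 19.8% for gained and 12.9% to 26.0% for lost peaks. In whole lists and at equal length the step from P21 to P48 had the highest promoter share of gained peaks and the lowest of lost peaks among the 5 steps. The step from E18.5 to P1 changed its order with length, from 13.1% of gained and 14.4% of lost peaks in whole lists to 19.8% and 12.9% at equal length. In the step just before it, P7 to P21, 24.2% of lost and 5.99% of gained peaks were at promoters, the opposite order. The promoter share of whole lists accordingly was 30.8% at P7 and 22.2% at P48, and P21 lay below both.

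Lost and gained peaks were weak members of their lists. The median lost peak stood at percentile 24.7 of the P21 list by −log10 p and the median gained peak at percentile 25.7 of the P48 list. In the weakest of 10 equal bins of the P21 list 40.2% of peaks were lost, and in the strongest bin 0.507%. In the P48 list the gained share went from 69.3% in the weakest bin to 0.285% in the strongest. Lost peaks were also narrower, with a median width of 413 bp against 524 bp for gained peaks and 553 bp and 659 bp for kept peaks at P21 and P48.

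**Figure D2:**
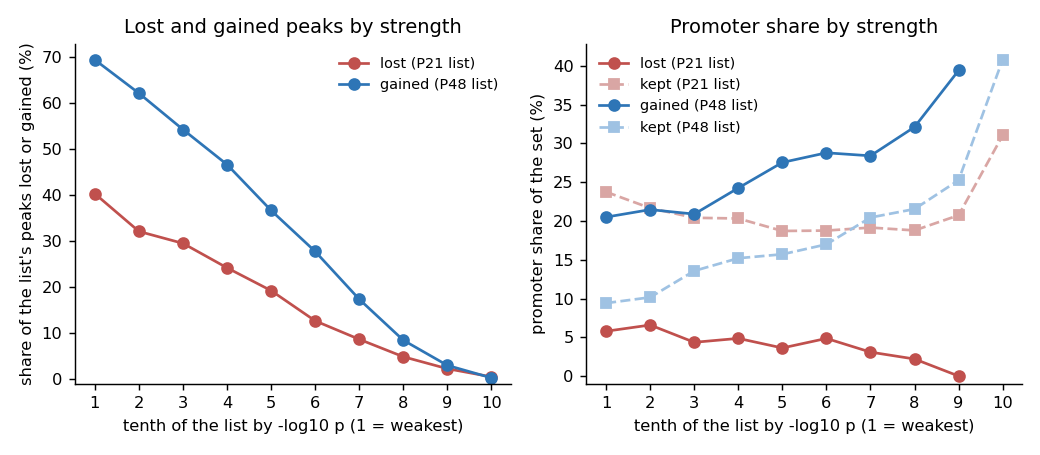
Left, share of each list's peaks that was lost or gained (%, vertical axis) in 10 bins of −log10 p from weakest to strongest (horizontal axis), and right, promoter share (%) of lost, gained and kept peaks in the same bins, with bins of fewer than 20 lost or gained peaks left out. Lost peaks stayed below kept peaks of the same strength, and gained peaks stayed above them.

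The difference in context was also present among peaks of like strength. In each of the 10 bins the promoter share of lost peaks was below that of kept P21 peaks, for example 5.78% against 23.7% in the weakest bin and 4.85% against 18.8% in the sixth. In each bin of the P48 list the promoter share of gained peaks was above that of kept peaks, 20.5% against 9.41% in the weakest bin and 28.8% against 17.0% in the sixth. The strongest bin held only 19 lost and 13 gained peaks.

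Base composition moved with the same split. The median GC content of the 300 bases around the summit was 42.0% in lost, 47.0% in kept P21, 47.3% in kept P48 and 50.3% in gained peaks. When the peaks of both lists were put in 5 bins by GC content, 32.5% of P21 peaks were lost in the bin of lowest GC and 2.80% in the bin of highest GC. Gained peaks made up 18.7% of P48 peaks in the lowest and 41.0% in the highest bin. Distal peaks alone showed it too, with 32.7% falling to 5.82% for lost peaks and 18.6% rising to 52.5% for gained peaks. Within promoters, lost peaks went from 23.9% to 1.78% and gained peaks from 22.3% to 36.0%. In each bin P21 promoter peaks were lost less often than distal ones, in the middle bin 10.8% against 14.5%. P48 promoter peaks were gained more often than distal ones only in the lowest bin. In the bins above it the shares were 24.3% against 26.9%, 32.3% against 32.4%, 34.9% against 40.0% and 36.0% against 52.5%. Outside the lowest bin, gained peaks thus held no excess of promoters over kept P48 peaks of like GC content. The GC content of the reads was not measured here, and its part in the composition of the lists was not tested.

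**Figure D3:**
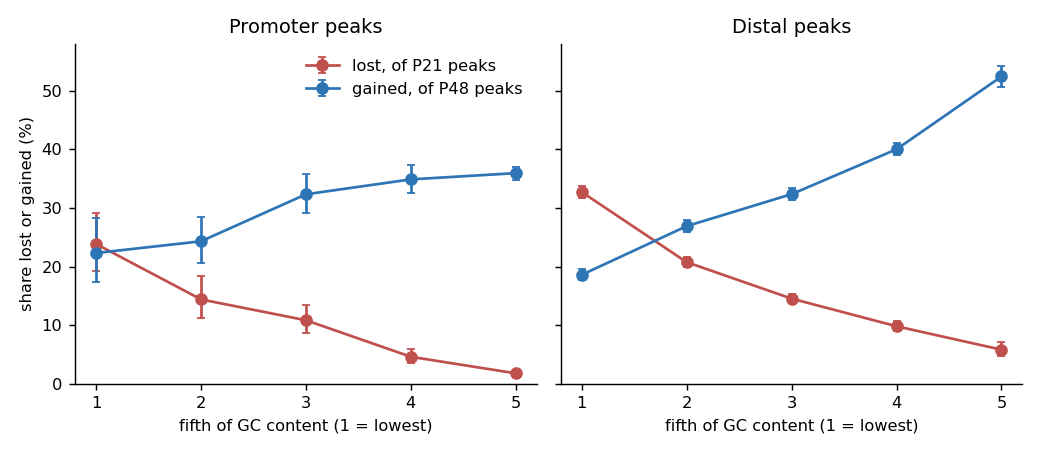
Share of P21 peaks lost and of P48 peaks gained (%, vertical axis) in 5 bins of GC content from lowest to highest (horizontal axis), for promoter and distal peaks, with 95% Wilson intervals. Lost shares fell with GC content in both panels, from 32.7% to 5.82% in distal peaks, and gained shares rose, from 18.6% to 52.5%.

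Kept peaks moved in rank in the same direction. Of the kept peaks, 30490 overlapped 1 peak of the other list and no more. Their summits differed by a median of 25 bp, and their median width was 553 bp at P21 and 658 bp at P48, with 73.1% wider at P48. The rank correlation of their −log10 p between ages was 0.614 (Spearman, across peaks, which are not replicates), and 9297 of them (30.5%) moved by more than 25 percentile points. The median change in rank from P21 to P48 was −13.4 points in the bin of lowest GC, −4.96, −0.03 and 5.97 in the next bins and 10.2 in the bin of highest GC. Promoter peaks moved up by a median of 6.91 points, whereas intergenic peaks had a median change of −2.85 and intronic ones of −1.70.

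The kept peaks with the largest changes in rank followed these medians only in part. The 5 that dropped most lay in intergenic sequence nearest to A830018L16Rik and in introns nearest to Erp44 (a chaperone of the secretory pathway), Pappa2 and Mmp16 (both metalloproteinases) and Ms4a5, with GC contents between 32.0% and 44.7%. The peak near A830018L16Rik had a −log10 p of 41.4 at P21 and 15.2 at P48. The 5 that rose most lay in introns nearest to Trerf1, Plekha7 and Fstl4 and at the promoters of Chfr (a mitotic checkpoint ubiquitin ligase) and Dcaf8, with GC contents between 49.0% and 70.3%. Intronic peaks as a whole had a negative median change, −1.70, and the Trerf1 peak lay in the middle GC bin. The Trerf1 peak had a −log10 p of 14.0 at P21 and 52.5 at P48, and the Chfr promoter had 14.2 and 49.4. The promoters of Chfr and Dcaf8 were also listed at all 4 earlier ages of Cux2 CPNs.

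At the earlier ages of Cux2 CPNs promoter peaks of every set were listed more often than distal peaks. Of the gained promoter peaks 75.0% (73.5% to 76.4%) were present in at least 1 of the Cux2 lists of E18.5, P1, P3 and P7, and 44.0% were in all 4. Of the gained distal peaks 27.1% (26.3% to 27.9%) were in any of these lists and 7.17% in all 4. Kept promoters of P48 were in an early Cux2 list in 87.2% of cases and in all 4 in 75.1%, and lost promoters in 49.5% and 21.5%, so gained promoters lay between lost and kept ones. Lost distal peaks were in an early Cux2 list in 28.4% of cases and kept distal peaks of P48 in 39.2%. Most gained promoters were therefore listed early, unlisted at P21 and listed again at P48, while most gained distal peaks were listed at P48 and at no earlier age of this class.

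**Figure D4:**
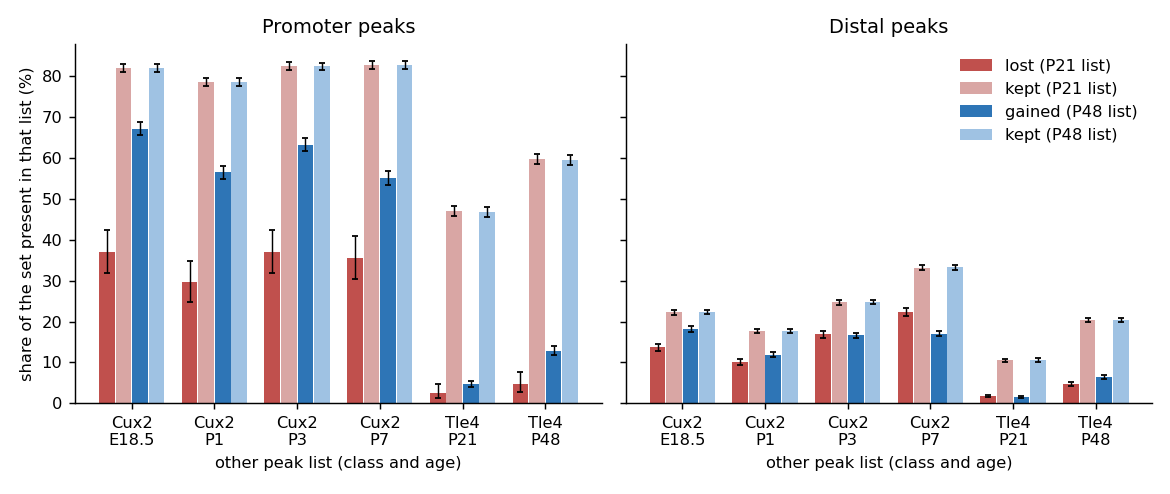
Share (%, vertical axis) of lost, kept and gained promoter peaks (left) and distal peaks (right) that overlapped a peak in each of 6 other lists (horizontal axis), with 95% Wilson intervals. Gained promoters were present in 55.1% to 67.2% of cases in the early Cux2 lists, and in 12.8% in the Tle4 list of P48.

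By single age, the gained promoters were most often found in the E18.5 list, 67.2%, and the lost distal peaks in the P7 list, 22.3%. At E18.5 13.7% of lost distal peaks were listed. Gained distal peaks were listed in 18.3% of cases at E18.5, 11.9% at P1, 16.6% at P3 and 17.0% at P7. The early lists differ in length, from 21747 peaks at P1 to 33988 at E18.5, so these shares also carry the length of each list.

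The late lists of Tle4 corticothalamic projection neurons (Tle4 CThPNs, of layer 6) held few peaks of either set. At least 1 of the late Tle4 lists held 5.34% of lost, 8.85% of gained and 31.0% of kept peaks. Since these lists have 6538 and 11836 peaks, absence from them is weak information. Of lost peaks 64.8% were in none of the other 10 lists, of gained peaks 55.9% and of kept P21 peaks 40.4%.

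Counted by gene, promoters were mostly added. Of 22208 protein-coding genes, 6503 had a promoter peak at both ages, 2892 (13.0%) at P48 alone, 171 (0.770%) at P21 alone and 12642 at neither. Of the genes with a promoter peak at P48 alone, 2525 (87.3%) had one in an early Cux2 list and 1566 (54.1%) in all 4. Among genes with a promoter peak at both ages these shares were 95.8% and 85.4%, among those with one at P21 alone 66.1% and 33.3%, and 50.4% of all protein-coding genes had one in an early Cux2 list. With each peak given to the nearest protein-coding start site within 100 kb, 7504 genes (33.8%) had at least 1 gained peak and 3221 (14.5%) at least 1 lost peak. These 4 percentages are the background for the gene groups below. Shares of a group's peaks are set against 32.5% gained and 17.4% lost, which count all peaks of a list. The group shares count only peaks with a protein-coding start site within 100 kb, which 83.5% of gained and 64.8% of lost peaks had. The bases of these shares therefore differ, and the shares over all assigned peaks are not given here.

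Genes with many gained or lost peaks were long. The median length was 86.5 kb in the 1130 genes with 3 or more gained peaks and 227 kb in the 187 genes with 3 or more lost peaks, against 15.5 kb in all genes. Kalrn, a guanine nucleotide exchange factor of dendritic spines, had the most gained peaks, 17, with 21 kept peaks at P48 and 1 lost. Camta1, a calmodulin-binding transcription activator, followed with 13 gained, 5 kept and no lost peaks. The synaptic scaffold gene Magi2 had 12 gained peaks, and Csmd2, the potassium channel gene Kcnh1, Nav2, Odz4 and Vps8 had 11 each. Dlgap2 (a postsynaptic scaffold) and Gtdc1 had 10 each. A promoter peak at P48 alone was found in Magi2, Kcnh1, Nav2 and Gtdc1.

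The genes with most lost peaks had 5 to 7 each. Csmd1, Egfem1 and the phosphodiesterase gene Pde4d had 7 lost peaks each, the neurexin family gene Cntnap2, the scaffold gene Dlgap1 and the teneurin gene Odz3 had 6 each, and Ank, Cntn4 (a contactin), Dip2c and Dpp6 (an auxiliary subunit of potassium channels) had 5 each. Egfem1 had 7 lost, 5 kept and no gained peaks. Dlgap1 and Ank had as many gained as lost peaks, 6 and 5, so their regions exchanged peaks without a change in number.

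The strongest lost peaks were all distal. The first was an intergenic peak near Glra3, chr8:58608152-58608771, with a −log10 p of 51.6, percentile 97.3 of the P21 list, and it was also listed at all 4 early ages of Cux2 CPNs and in no Tle4 list. The other 9 had −log10 p values from 40.5 to 48.1 and lay near 1700018B24Rik, Cadps, Epas1 (a hypoxia-inducible transcription factor), Arrdc4, Steap1, Gramd3 and Dsc3 and in introns next to Srek1 (a splicing regulator) and Cwh43. The nearest start sites of the 10 lay between 19157 bp (Srek1) and 991544 bp (Dsc3) away, so a gene name here marks a place and not a target. The peaks near Arrdc4, 1700018B24Rik and Steap1 were listed at 3, 1 and 1 early ages, and the remaining 6 at none. The peaks by Gramd3 and Srek1 were listed in Tle4 CThPNs at P48.

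Of the 10 strongest gained peaks 5 were at promoters. The first was an intergenic peak near Usp51, chrX:149408897-149409521, with a −log10 p of 53.4, percentile 94.9 of the P48 list. It lay 466 bp from a P21 peak, the nearest among the 10, and was in no other list. The promoters were those of Map3k6 (a stress-activated kinase), Dph3 (diphthamide synthesis), Wrb, Frmd4a (a polarity scaffold) and Actr2, with −log10 p from 48.3 to 52.6, and each was listed at 3 or 4 of the early ages. The other 4 lay near AI593442, Mmd and Sema4a (a semaphorin) and in an exon near Pebp1 (an inhibitor of RAF kinase), were at no early age, and those near Mmd and Pebp1 were in the Tle4 list of P48.

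The identity of the sorted cells was read from promoter peaks of marker genes. Cux2 itself had a promoter peak at both ages, with a −log10 p of 39.9 at P21 and 56.8 at P48, and Rorb, a nuclear receptor of the upper layers, had 39.2 and 30.1. Among 10 upper-layer callosal genes Pou3f2 had a promoter peak at P48 alone, and the other 7, including Cux1, had none at either age. Of 9 deep-layer corticothalamic genes Tle4 had a promoter peak at both ages, with a −log10 p of 69.4 at P21 and 99.7 at P48. These values were above those of Cux2. The other 8 deep-layer genes had no promoter peak at either age. Of 5 excitatory neuron genes, Neurod6 and Camk2a had one at both ages, Emx1 and Neurod2 at P48 alone, and the vesicular glutamate transporter gene Slc17a7 at neither, so absence of a promoter peak does not show that a gene was silent. Of 11 interneuron genes 10 had none at either age, including Gad1, Gad2, Lhx6 and Pvalb, and Adarb2 had one at both. None of 8 oligodendrocyte lineage, 6 microglial and 4 endothelial genes had one. Distal peaks were assigned to these genes too. The interneuron genes held 4 gained peaks, all by Dlx2 and more than 50 kb from its start site. They were 44.4% of the group's P48 peaks (18.9% to 73.3%), and the 1 lost peak of the group was also by Dlx2. The oligodendrocyte genes held 12 gained peaks (7 of them by Mbp, a myelin protein), 46.2% of their P48 peaks (28.8% to 64.5%), the microglial genes 1 and the endothelial genes 2. Of the 6 astrocyte genes 5 had a gained peak, against 33.8% of all genes, with a gained share of 31.6% (15.4% to 54.0%). The interneuron, oligodendrocyte and astrocyte intervals all include the 32.5% of the whole list. The part of other cell types in the gained peaks was not tested. Of 6 astrocyte genes Aldh1l1 had a promoter peak at both ages and Gfap at P48 alone, with a −log10 p of 21.9, and the Gfap promoter was listed at all 4 early ages too.

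Voltage-gated sodium and calcium channel genes held many gained peaks. Of 23 such genes 21 had at least 1 gained peak, against 33.8% of all protein-coding genes, and 6 had a lost one, against 14.5%. Because channel genes are long, the peaks themselves give a better comparison. They held 58 gained and 66 kept peaks at P48, a gained share of 46.8% (38.2% to 55.5%), against 32.5% of the whole list. Peaks of 1 gene share a region, so this interval is too narrow. The lost share was 11.1% (5.74% to 20.4%), against 17.4%. Promoter peaks were listed at P48 alone in 7 of the 23 genes, against 13.0% of all genes. They included those of Cacna1a and Cacna1b (pore subunits of presynaptic calcium channels) and Cacna2d1 and Cacnb1 (auxiliary calcium channel subunits). Those of Scn2a1 (a sodium channel pore) and Scn2b (a sodium channel beta subunit) were also among them. The strongest were those of Cacnb1, with a −log10 p of 30.3, and Cacna1b, with 29.6, and the weakest was that of Scn2b, with 14.4, close to the lowest value of the list. Cacna1a had 8 gained and 5 kept peaks and Cacna1b 7 and 7, none lost. Scn1a and Scn3b had no gained peak.

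Of 24 activity-regulated genes 15 had a promoter peak at both ages, 5 at P48 alone (against 13.0% of all genes) and 4 at neither, and none at P21 alone. The 5 were the transcription factor genes Fosb, Npas4 and Nr4a1, the phosphatase gene Dusp4 and the pentraxin gene Nptx2. Their −log10 p at P48 was 15.8 for Fosb, 14.7 for Npas4, 16.6 for Nr4a1, 21.9 for Dusp4 and 20.0 for Nptx2, which put Npas4 at percentile 2.68 and Dusp4 at percentile 43.0 of the P48 list, where the median gained peak stood at percentile 25.7. Nptx2 was listed at 3 early ages and the other 4 genes at all 4. Among the genes with a peak at both ages, Fos had 24.0 at P21 and 31.3 at P48, Arc 15.6 and 26.9 and Bdnf 25.1 and 22.6. The gained share of the group's peaks was 35.8% (26.2% to 46.7%), an interval that includes the 32.5% of the whole list.

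Receptor and synapse genes were near the whole list. The gained share was 38.4% (28.8% to 48.9%) for glutamate receptors, 34.9% (24.3% to 47.2%) for GABA receptors, 41.3% (32.5% to 50.7%) for synaptic vesicle and release genes and 31.9% (26.3% to 38.1%) for synaptic adhesion genes and organisers. Promoter peaks at P48 alone included those of Gria1 (an AMPA receptor subunit), Grin2a and Grin3a (NMDA receptor subunits), Grm8, Rims2 and Syp (release machinery), and Clstn2, Dlg4, Dlgap1 and Ptprd (synaptic organisers and scaffolds). Grin2a, the NMDA receptor subunit that becomes prominent as the cortex matures, had 7 gained and 4 kept peaks, and Grin2b, its early counterpart, 1 and 4. The metabotropic receptor gene Grm3 had 4 lost, 10 kept and 1 gained peaks.

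A different picture was seen in the matrix and neuromodulator groups. Perineuronal net and matrix genes (13 genes) had 2 gained and 18 kept peaks at P48, a gained share of 10% (2.79% to 30.1%), and 8 lost peaks, 30.8% of their P21 peaks (16.5% to 50.0%). The lost peaks belonged to Hapln1, Hapln4 and Tnc with 2 each and to Bcan and Vcan with 1 each. Of 26 neuromodulator receptor genes 11 (42.3%) had a gained peak, against 33.8% of all genes, whereas the gained share of their peaks was 19.4% (12.0% to 30.0%) and the lost share 10.8% (5.32% to 20.6%), and only the adrenergic receptor gene Adra2a had a promoter peak at P48 alone. The upper bound of each of these gained shares lies below the 32.5% of the whole list. However, the peaks are few, and those of 1 gene share a region, so the intervals are too narrow. The intervals of both lost shares include the 17.4% of the P21 list.

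Genes of the immature neuron had a gained share above that of the whole list, and a lost share not clearly apart from it. The 18 genes had a gained share of 47.5% (35.3% to 60.0%), against 32.5% of the whole list and 46.8% for the channel genes. Their lost share was 22.5% (12.3% to 37.5%), an interval that includes the 17.4% of the P21 list. Peaks of the same gene share a region, so these intervals are too narrow. The microtubule gene Dcx exchanged its peaks, with 2 lost, 3 gained and none kept, and its promoter peak was listed at P21 alone, with a −log10 p of 17.4. Stmn1, another microtubule regulator, had a promoter peak at P48 alone, with 23.6. Of 8 neurofilament and cytoskeleton genes found in the annotation, 3 had a promoter peak at P48 alone, against 13.0% of all genes. These were Ina, Nefh and Mapt (an axonal microtubule protein), with −log10 p of 17.9, 19.3 and 16.5. No gene named Map2, Tubb4a or Sptbn4 was found among the annotation's protein-coding genes.

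Deep-layer marker genes lost the highest share of peaks among the groups. These 9 genes of corticothalamic identity held 12 lost peaks, 46.2% of their P21 peaks (28.8% to 64.5%), against 17.4% of the list. Peaks of 1 gene share a region, and most of the lost ones belonged to Fezf2 and Sox5, so the intervals of this group are too narrow. Fezf2, a selector gene of deep-layer neurons, had 4 lost and 1 kept peaks, Sox5 had 4 and 6, Zfpm2 had 2 lost and none kept, and Foxp2 and Tle4 had 1 lost each. They also held 11 gained peaks, 44.0% of their P48 peaks (26.7% to 62.9%). Upper-layer genes had a lost share of 15.0% (7.06% to 29.1%).

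Circadian and glucocorticoid genes were close to the list. The gained share was 32.4% (22.9% to 43.7%) for 18 clock genes and 33.3% (20.6% to 49.0%) for 13 glucocorticoid targets. The clock regulators Bhlhe40, Nfil3 and Nr1d1 had a promoter peak at P48 alone, and the clock activator Npas2 at P21 alone, with a −log10 p of 17.1. Npas2 had 5 lost and 10 kept peaks and 1 gained peak. The stress-response chaperone gene Fkbp5 had a promoter peak at P48 alone, with 29.7. Over all groups, 36 of 284 genes had a promoter peak at P48 alone and 3 at P21 alone, shares near the 13.0% and 0.770% of all genes. The 36 promoters had a median −log10 p of 17.9 and a range from 14.4 to 30.3, and 33 of them were listed at an early age of Cux2 CPNs.

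Motif matches in distal peaks differed between the sets for CTCF, which organises chromatin loops. A CTCF match lay in 4.77% of gained distal peaks, against 1.81% of lost, 2.25% of kept P21 and 2.26% of kept P48 distal peaks. The gained share was above the kept and lost shares in each of the 5 GC bins, from 3.52% against 1.47% of kept P48 peaks in the lowest bin to 5.67% against 2.99% in the highest. It was also above the kept share in the weaker 50% of the P48 list, 4.82% (4.41% to 5.27%) against 2.88% (2.55% to 3.24%) of kept peaks, and in the stronger 50%, 4.46% (3.60% to 5.50%) against 1.89% (1.68% to 2.12%).

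Distal peaks with a CTCF match were mostly listed early, whatever their later course. Of the 540 gained distal peaks with a match, 68.0% (63.9% to 71.8%) were in an early Cux2 list, against 25.0% of those without one. For the 112 lost distal peaks with a match it was 76.8% (68.2% to 83.6%), against 27.5%, and for kept P48 peaks 88.1% against 38.0%. Gained distal peaks with a CTCF match thus resembled gained promoters in being listed at an early age, not at P21 and again at P48.

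The NEUROD E-box (CAGATG) had the opposite side of the split. It was matched in 30.0% of lost distal peaks, against 37.2% of kept P21, 37.4% of kept P48 and 38.2% of gained ones. Lost peaks had the lowest share in each GC bin, for example 27.9% against 35.2% of kept P21 peaks in the lowest and 30.5% against 39.2% in the middle bin. They had the lower share in both parts of the P21 list too, 30.7% against 37.0% in the weaker 50% and 26.5% against 37.2% in the stronger 50%.

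**Figure D5:**
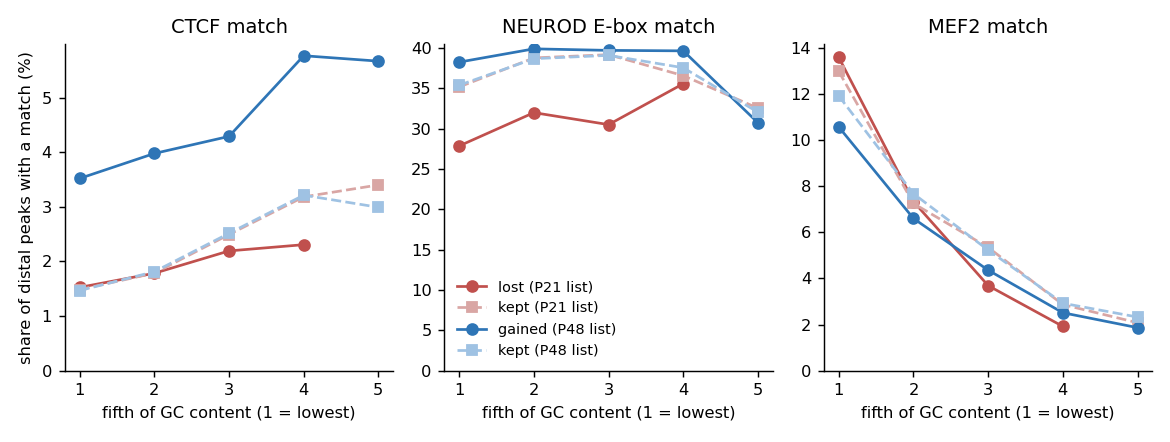
Share of distal peaks with a CTCF, NEUROD E-box or MEF2 match (%, vertical axes) in 5 bins of GC content (horizontal axes), for lost, gained and kept peaks, with sets of fewer than 100 peaks left out. Gained peaks lay above all others for CTCF, from 3.52% in the lowest GC bin, lost peaks lay lowest for the E-box, and the sets lay close together for MEF2.

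Several other motifs moved with base composition. The A/T-rich MEF2 motif was matched in 9.23% of lost and 4.62% of gained distal peaks, and within the lowest GC bin in 13.6% and 10.6%, with 13.0% of kept P21 peaks. In the middle bin the shares were 3.69% and 4.36%. The POU octamer (ATGCAAAT) was matched in 5.00% of lost and 2.38% of gained distal peaks. In the lowest GC bin it was found in 6.60% of lost, 3.98% of gained and 6.52% of kept P21 peaks, so there the gained set differed from the others and the lost set did not. The SP/KLF motif was matched in 1.21% of lost and 4.69% of gained distal peaks of any GC content, and in 13.5% and 15.6% in the highest GC bin. AP-1 did not move with base composition in this way. It was matched in 25.8% of lost, 21.6% of gained and 27.0% of kept P48 distal peaks, and gained peaks had a lower share than kept P48 peaks in each GC bin, for example 22.5% against 27.7% in the lowest and 17.0% against 21.4% in the highest.

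By chromosome, the lost share ran from 11.2% on chromosome 7 to 19.9% on chromosome 3 among the 19 autosomes and was 25.5% on the X chromosome. The gained share ran from 24.1% on chromosome 3 to 40.9% on chromosome 7, with 26.8% on the X chromosome. The chromosomes with the lowest and the highest gained share also had the lowest and the highest median GC content of P48 peaks, 46.3% and 51.0%.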

How the data were processed

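ATAC-seq was done on sorted Cux2 CPNs and Tle4 CThPNs, with 2 replicates per age and class. The deposited files are 12 peak lists in narrowPeak layout without header, 1 per class and age, with replicates joined by the irreproducible discovery rate. The authors aligned reads with Bowtie2 to mm9, removed duplicates with Picard and called peaks with MACS2, and it is not stated in the sources used here whether reads were shifted for Tn5. Per the deposited lists, each peak has a fold enrichment (a ratio to background), a −log10 p-value and a summit offset. The methods name a target depth common to all libraries, but the lists hold no read counts, so the depth behind a peak is unknown and no count test was possible. A few peaks outside chromosomes 1 to 19 and X were left out, 6 at P21 and 7 at P48.

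Peaks were compared in Python 3.11.15 with numpy 2.4.6, pandas 2.3.3 and scipy 1.17.1. Lost, gained and kept peaks were set by an overlap of at least 1 bp. Context, nearest genes (within 100 kb of the summit) and sequence came from the NCBIM37 (mm9) genome with GENCODE vM1 annotation, with 95414 start sites. All peak ends tested lay within its chromosome lengths. Motifs were searched in 300 bp around summits on both strands. The motifs named in the report are spelled out there. The remaining ones were TGACGTCA for CRE-binding factors, GCGNGGGCG for EGR factors (it can overlap the SP/KLF motif), TAGGTCA for ROR receptors, AGGTGTGA for T-box factors, ATCGAT for CUX factors and ACAATGG for SOX factors. MEF2 and CTCF were searched by their usual consensus. The peaks and genes named are the 10 strongest lost and gained peaks, the 10 genes with most of each, the list genes with a promoter peak at only 1 age (a few of these are not reported here), and the 5 kept peaks with the largest rise and fall in rank. Other list genes named for contrast were chosen after their values were seen. The comparison, gene lists and motifs were chosen with earlier results of these data known. Overlap, distance and motif functions were tested on simulated data with known answers. Alternatives were other overlap rules, equal or shortened lists, other promoter widths and other windows.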

Additional observations from a re-analysis of the deposited data

Results flagged for a closer look

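The step from P21 to P48 had opposite signs in the 2 neuron classes. In Cux2 CPNs the promoter share of gained peaks exceeded that of lost peaks by 18.8 percentage points (23.7% against 4.93%). In Tle4 CThPNs the difference was −9.05 points (24.4% of gained against 33.5% of lost peaks). Each class has 1 pooled list per age, so this difference was not tested. The Tle4 lists were short, with 6538 peaks at P21 and 11836 at P48, and at equal length their promoter shares were 27.1% of gained and 38.0% of lost peaks. The part of list length in this difference was not tested beyond that.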

How the results depend on the processing

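No paired analysis was possible because each age has 1 list that joins its replicates, so leaving out a replicate was not possible either. The promoter share of gained peaks exceeded that of lost peaks under all 10 alternatives, by 11.5 to 26.5 percentage points. Values that left the interval of the reported share follow as lost and gained share of the lists, then promoter share of lost and gained peaks. With 50% reciprocal overlap they were 22.9%, 36.8%, 11.2% and 24.7%. With equal length by −log10 p they were 24.7%, 25.1%, 6.17% and 25.2%, and by fold enrichment 28.0%, 28.3%, 10.8% and 22.4%. With the stronger 50% of each list they were 23.2%, 37.1%, 6.34% and 28.0%. With the stronger 50% of 1 list against the whole other list, chosen after seeing the data, they were 5.80%, 11.4%, 3.41% and 29.9%. A common limit of −log10 p gave shares of 16.2% lost and 35.2% gained, and counting peaks within 500 bp as shared gave 31.7% gained. Promoter shares of lost and gained peaks were 3.36% and 21.1% within 500 bp, 8.87% and 29.4% within 2.5 kb, and 3.91% and 22.1% at protein-coding start sites. Presence in an early Cux2 list, reported as 29.4% of lost and 38.4% of gained peaks, was 32.6% and 42.4% with every Cux2 list cut to 21747 peaks, and 30.8% and 36.6% with reciprocal overlap. Apart from what the shorter lists and changed rules themselves bring, the cause of these shifts was not tested. The 10 strongest lost peaks stayed lost under every alternative, and 9 or all 10 of the strongest gained peaks stayed gained, the exception being the peak near Usp51 when peaks within 500 bp counted as shared. Only this 500 bp rule could turn a lost or gained peak into a kept one. The other alternatives could add no overlap, so the calls holding under them is no support. Of 64 values for motifs and gene groups, 42 stayed within their interval or within 1.5 times. Without read counts at each place, what an absent peak means is limited.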
